A study of Rattus norvegicus with 16 samples.

Results

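Calprotectin is the complex of the calcium-binding proteins S100a8 and S100a9, and it stands here with 7 other antimicrobial proteins of the gut. The transcript levels of S100a8, S100a9, Lcn2, Ltf, Reg3b, Reg3g, Slpi, Camp and Pglyrp1 were followed in normal distal colon. These 9 genes, of 15159 gene symbols on the arrays, were chosen by a list of names, and each is read by 1 probe among 30367. They were listed with results of these arrays known, S100a9 for its difference between the genotypes, so the genotype differences of S100a9 are given as a description with no test and the counts of called members support nothing.

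The 16 male rats, 4 in each of 4 groups, were (ACIxF344)F1 animals, 97 days old. The Pirc groups were heterozygous for the Pirc allele of Apc, a germline nonsense mutation carried by every tissue that predisposes the rat to intestinal adenomas, and the wildtype groups were Apc wild type. The DSS groups drank 4% dextran sodium sulfate (DSS), a polymer that injures the colonic mucosa and causes colitis, on days 40 to 47 and again on days 54 to 61. All tissue was taken 36 days after the last DSS, and the untreated groups, called Control in the labels, were taken at the same age. The labels give 1 array to each rat.

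These proteins defend the gut by starving, opening or restraining microbes. Calprotectin withholds zinc and manganese, is stored in the cytosol of neutrophils and is a stool marker of intestinal inflammation, but stressed stratified epithelium makes it too. Lipocalin 2 (Lcn2) captures bacterial siderophores and lactotransferrin (Ltf) binds iron. Reg3b and Reg3g are secreted lectins of the intestinal epithelium, whose genes respond to Il22. Slpi inhibits neutrophil elastase and cathepsin G, Camp is the precursor of the cathelicidin peptide, and Pglyrp1 binds bacterial peptidoglycan.

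The promoters of S100a9 and Lcn2 are shown because both genes were called after DSS in Pirc rats, and those of Reg3b and Reg3g because these near relatives gave different readings on the arrays. The RefSeq table (build GRCr8) held an entry for 7 of the 9 members, all but S100a8 and Slpi. Each line gives the 250 bases before the start of the gene, 5′ to 3′ on the strand of the gene, with the motifs found in capitals. S100a9 lies at chr2:178490623-178490872 on the minus strand, Lcn2 at chr3:36081781-36082030 on the minus strand, Reg3b at chr4:112419526-112419775 on the plus strand and Reg3g at chr4:112484739-112484988 on the minus strand.
S100a9: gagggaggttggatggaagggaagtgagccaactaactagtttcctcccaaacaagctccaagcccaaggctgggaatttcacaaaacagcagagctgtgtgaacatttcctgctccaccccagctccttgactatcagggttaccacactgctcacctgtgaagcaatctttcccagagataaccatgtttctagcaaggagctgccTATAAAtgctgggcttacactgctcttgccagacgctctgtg
Lcn2: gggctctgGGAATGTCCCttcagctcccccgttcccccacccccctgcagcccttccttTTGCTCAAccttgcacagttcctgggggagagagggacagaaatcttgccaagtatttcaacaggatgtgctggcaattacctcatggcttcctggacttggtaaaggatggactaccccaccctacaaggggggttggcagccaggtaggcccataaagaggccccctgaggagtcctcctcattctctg
Reg3b: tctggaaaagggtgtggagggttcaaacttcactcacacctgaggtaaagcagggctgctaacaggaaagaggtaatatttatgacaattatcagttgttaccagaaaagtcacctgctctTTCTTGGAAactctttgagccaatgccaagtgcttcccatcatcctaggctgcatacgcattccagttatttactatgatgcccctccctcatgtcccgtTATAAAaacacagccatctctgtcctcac
Reg3g: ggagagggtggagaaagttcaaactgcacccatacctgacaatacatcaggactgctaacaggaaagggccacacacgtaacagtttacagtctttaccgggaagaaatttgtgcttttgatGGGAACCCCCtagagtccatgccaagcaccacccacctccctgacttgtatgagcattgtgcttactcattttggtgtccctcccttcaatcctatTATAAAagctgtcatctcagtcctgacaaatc
The letters searched were TATAAA on the strand of the gene and, on both strands, TTGCNNAA for C/EBP factors, TTCNNNGAA for STAT factors, TGANTCA for AP-1 and the NF-kappaB consensus. No 2 of the matches overlap. S100a9, Reg3b and Reg3g held TATAAA, which 8.06% of 33469 promoters of that length hold. Lcn2 held a C/EBP match (9.22% of promoters) and an NF-kappaB match (3.54%), Reg3b a STAT match (7.67%), and Reg3g an NF-kappaB match. In Pglyrp1 an AP-1 match was found (6.34% of promoters), and in Camp and Ltf none of these letters. These matches are descriptions of sequence and say nothing of which factor was bound.

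A level here is the log2 of a probe's signal minus the log2 of the 75th percentile of its array, so 0 is the 75th percentile and each unit is a factor of 2. Levels of different genes come from different probes and are not set against each other. How many of all probes separate the groups of a comparison was not counted, so groups without overlap are only a description of the levels. The 75th percentiles ran from 875.36 to 2194.03 units of intensity, 71.1% to 80.3% of spots stood well above background on each array, and none was saturated. In 14 of 16 rats the most alike array was one of the same group, while untreated Pirc rat 23 and DSS-treated wildtype rat 26 were nearest to untreated wildtype rat 25. Of 20 genes listed as markers of colonic epithelium, 18 were measured and were well above background on all 16 arrays, so the defining markers of the labelled tissue were present. The number of arrays limits the precision.

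Both subunits of calprotectin were enhanced by DSS, in Pirc rats by a factor of 24 for S100a8 and 15.5 for S100a9 and in wildtype rats by 5.92 and 4.16. The calls in Pirc rats held without each rat in turn, whereas those in wildtype rats were lost without any 1 of 7 rats for S100a8 and of 5 rats for S100a9. Lcn2 and Reg3b were also called higher in the DSS-treated Pirc rats, close to the background of the arrays. Slpi, Camp and Pglyrp1 were well above background on all 16 arrays and were not called in any comparison, and Ltf and Reg3g lay at background on nearly all arrays. Since the arrays read bulk tissue, more cells of a type and more RNA per cell cannot be told apart.

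**Figure D1:**
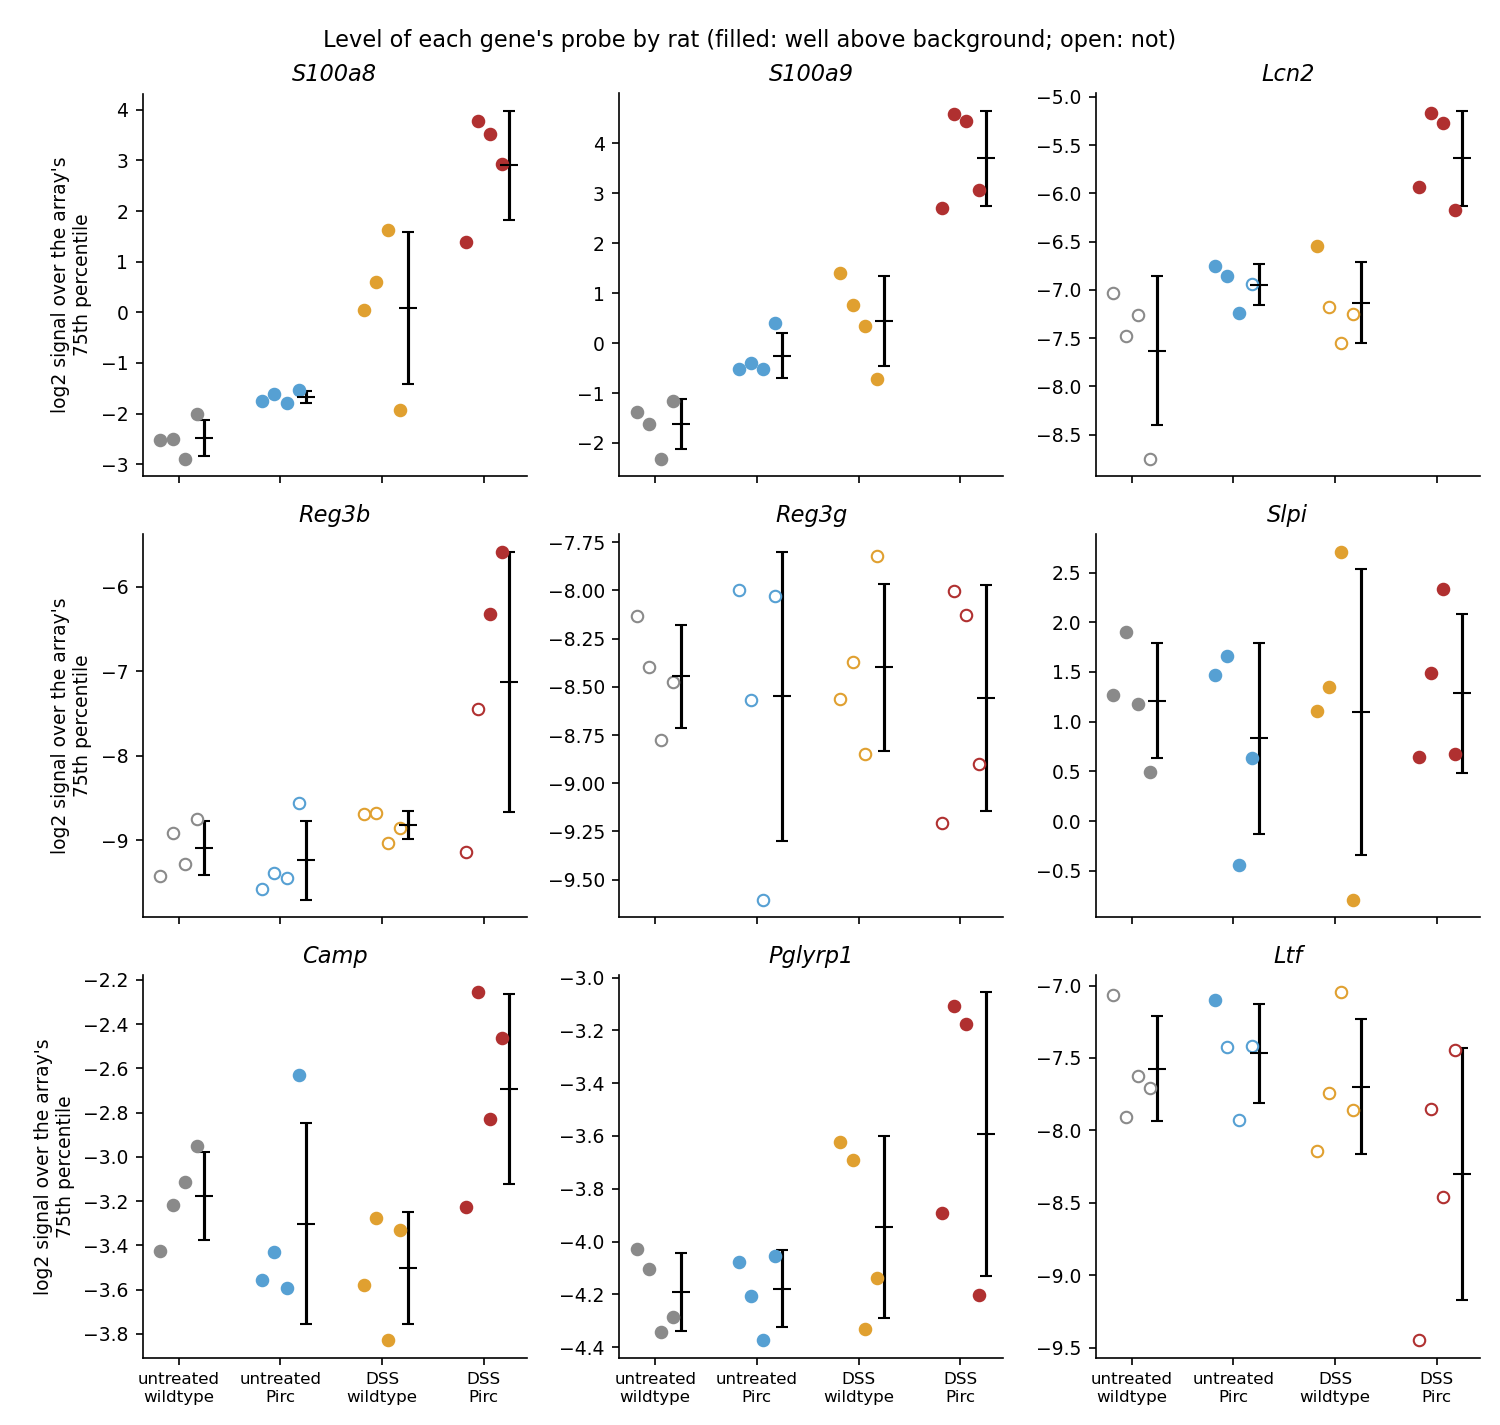
Level of each gene's probe in each rat, as log2 signal over the array's 75th percentile, with each panel on its own scale; points are rats, filled where the probe was well above background, and the black bar is the group mean with its SD (n = 4). S100a8 and S100a9 are highest in the DSS-treated Pirc rats, while Reg3g has no filled point.

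S100a8 carries the calcium and metal sites of calprotectin together with its partner. Its level was -2.52, -2.50, -2.89 and -2.01 in untreated wildtype rats 13, 17, 21 and 25, and -1.75, -1.62, -1.80 and -1.54 in untreated Pirc rats 11, 15, 19 and 23. In DSS-treated wildtype rats 14, 18, 22 and 26 it was 0.04, 0.60, 1.63 and -1.93, and in DSS-treated Pirc rats 12, 16, 20 and 24 it was 1.39, 3.78, 3.52 and 2.94. Every DSS-treated Pirc rat lay above every untreated Pirc rat. Every DSS-treated wildtype rat also lay above every untreated wildtype rat, but rat 26 only just, at -1.93 against a highest untreated level of -2.01, and below all of the untreated Pirc rats. S100a8 changed by 4.58 (SE 0.61) on the log2 scale in Pirc rats (limma adjusted p = 0.000277) and by 2.57 (SE 0.61) in wildtype rats (limma adjusted p = 0.0309).

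S100a9 is the partner of S100a8 and the larger of the subunits. Its level was -1.37, -1.62, -2.32 and -1.15 in untreated wildtype rats 13, 17, 21 and 25, and -0.52, -0.39, -0.53 and 0.41 in untreated Pirc rats 11, 15, 19 and 23. In DSS-treated wildtype rats 14, 18, 22 and 26 it was 1.40, 0.75, 0.33 and -0.72, and in DSS-treated Pirc rats 12, 16, 20 and 24 it was 2.70, 4.57, 4.44 and 3.07. The DSS-treated rats lay above the untreated rats of the same genotype with no overlap in either genotype. The change with DSS was 3.95 (SE 0.48) in Pirc rats (limma adjusted p = 0.00017) and 2.06 (SE 0.48) in wildtype rats (limma adjusted p = 0.0277). The same rats enter the genotype difference for which S100a9 was listed. Its p-values here and below are thus not independent of that choice and are a description.

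The calls in wildtype rats were not stable to leaving out single animals. Leaving out any 1 of rats 13, 17, 21, 25, 14, 18 or 22 gave S100a8 a limma adjusted p between 0.0527 and 0.101, with a change between 2.05 and 2.72, while without rat 26 the change was 3.24 (adjusted p = 0.00232). For S100a9 the same held of rats 13, 17, 21, 14 and 18, with an adjusted p between 0.0516 and 0.106 and a change between 1.74 and 2.14. A fit of the compared groups alone gave an adjusted p of 0.0927 for S100a8 and 0.0632 for S100a9, and a common floor for dim probes gave 0.0609 and 0.0539. In Pirc rats both genes stayed called without each rat in turn, at a highest adjusted p of 0.00152 and 0.000954. Within slide 1 and slide 2 the change of S100a8 was 4.27 and 4.90 in Pirc rats and 2.83 and 2.30 in wildtype rats, and that of S100a9 was 4.09 and 3.81 in Pirc rats and 2.57 and 1.54 in wildtype rats. Within array row 1 and row 2 the changes in wildtype rats were less even, at 3.54 and 1.59 for S100a8 and 2.71 and 1.40 for S100a9. In Pirc rats they were 4.23 and 4.94 for S100a8 and 4.09 and 3.81 for S100a9.

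Between the genotypes, no probe of the arrays was called in untreated rats (limma, 0% higher and 0% lower of 30367 probes, 3103 at an unadjusted p under 0.05). S100a8 differed by 0.80 (95% interval -0.50 to 2.11, limma adjusted p = 0.704) there. The untreated Pirc rats lay above the untreated wildtype rats with no overlap in S100a8 and in S100a9, whose means were -0.26 (SD 0.45) and -1.62 (SD 0.50). How many of all probes separate these groups was not counted, so nothing is read from this separation. In DSS-treated rats S100a8 was higher in Pirc by 2.82 (SE 0.61, limma adjusted p = 0.00712), a factor of 7.07, although rat 22 of the wildtype group exceeded rat 12 of the Pirc group. Without rat 26 the difference was 2.15, and a fit of these groups alone gave an adjusted p of 0.0637. S100a9 had means of 3.70 (SD 0.95) in Pirc and 0.44 (SD 0.89) in wildtype, and the groups did not overlap.

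The excess of the DSS effect in Pirc over that in wildtype was 2.02 for S100a8 (95% interval 0.17 to 3.86, limma adjusted p = 0.432), which did not pass. For S100a9 it was 1.89 (SE 0.68), which was not called and is given as a description. The difference of the DSS effects between the genotypes was therefore not shown for S100a8, at the spread of these rats. Nothing is read from that of S100a9. From highest to lowest, the group means of both genes ran DSS-treated Pirc, DSS-treated wildtype, untreated Pirc, untreated wildtype. The middle groups overlapped in both genes.

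**Figure D2:**
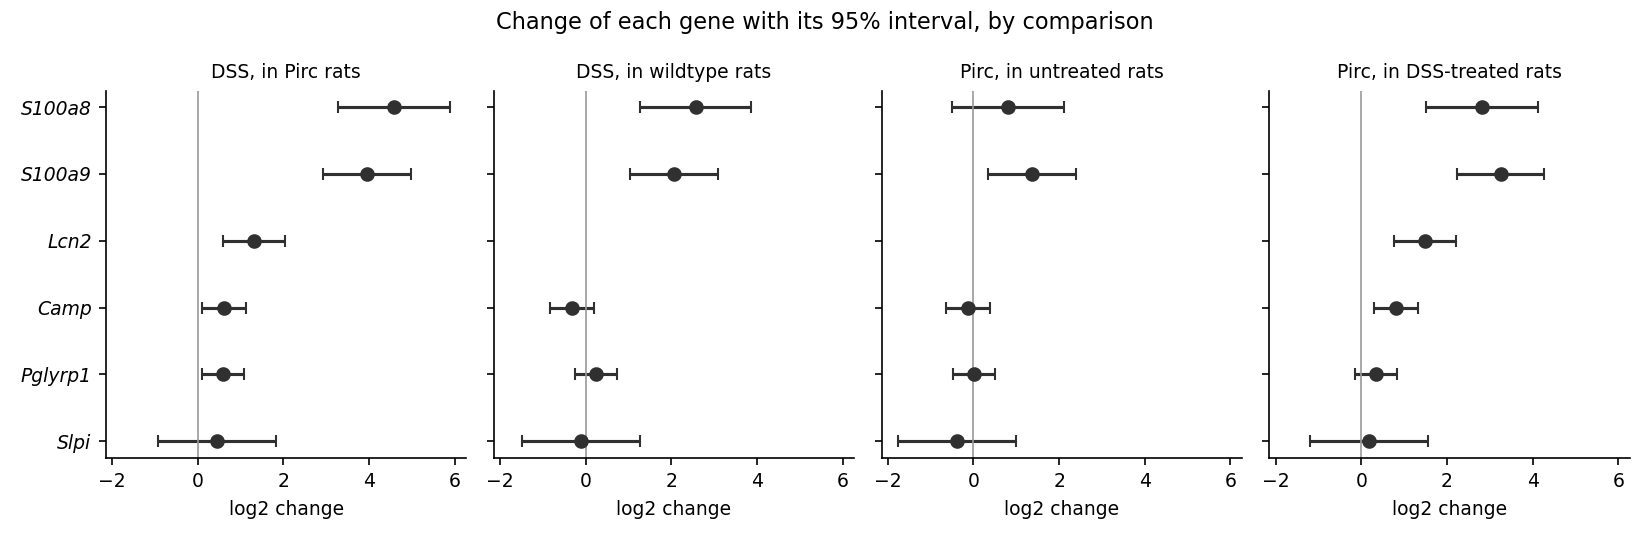
Change in log2 with its 95% interval (points and bars, n = 4 rats a group) for 6 of the genes in each of 4 comparisons; a gene is drawn only where the probe was well above background in both groups on at least 1 array. S100a8 and S100a9 lie farthest to the right for DSS in Pirc rats, and the intervals of Slpi include 0 in each panel; those of S100a9 between the genotypes are a description, since it was listed for that difference.

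The subunits moved together in most rats but not in all. Relative to the mean of untreated wildtype rats, S100a8 stood 2.52, 3.08, 4.11 and 0.55 higher in DSS-treated wildtype rats 14, 18, 22 and 26, and S100a9 stood 3.02, 2.37, 1.95 and 0.89 higher. Rat 22 had the highest S100a8 of its group and only the third S100a9, so that S100a9 minus S100a8 was -2.16 there. In the other 15 rats that difference lay between -0.74 and 1.08, the top of which was untreated Pirc rat 23. Over groups, S100a9 minus S100a8 changed with DSS by -0.63 (SE 0.45) in Pirc rats and by -0.51 (SE 0.45) in wildtype rats.

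**Figure D3:**
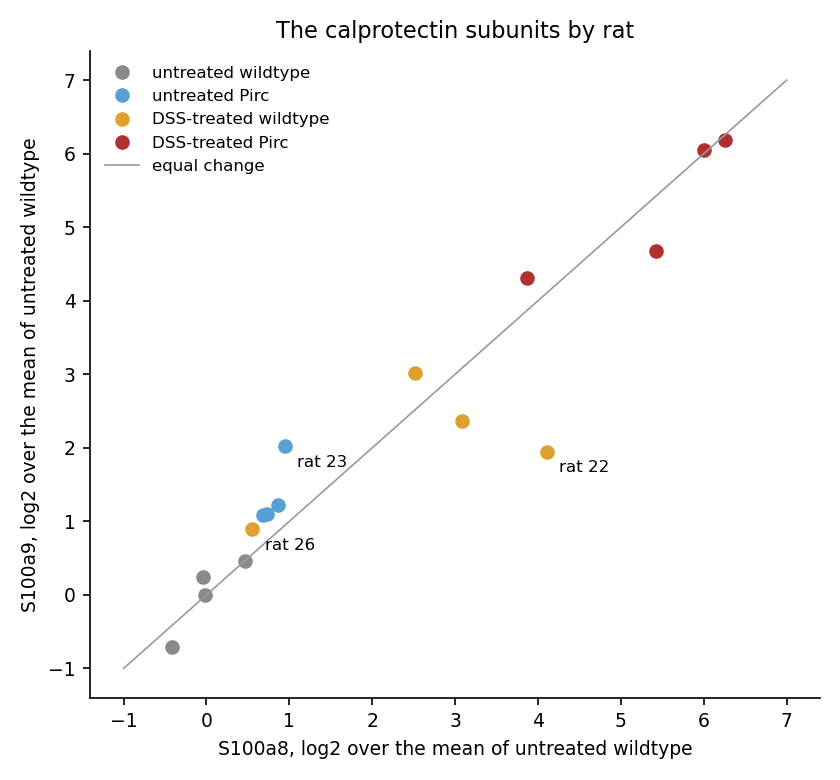
S100a9 against S100a8 in each of the 16 rats, both as log2 over the mean of the untreated wildtype rats, with the line of equal change. DSS-treated wildtype rat 22 lies farthest below the line, at 4.11 for S100a8 and 1.95 for S100a9.

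Lcn2, the siderophore-binding lipocalin, was read near background. Its probe was well above background in 3 of 4 untreated Pirc rats, 4 of 4 DSS-treated Pirc rats, 1 of 4 DSS-treated wildtype rats and 0 of 4 untreated wildtype rats. The level was -5.93, -5.17, -5.27 and -6.17 in DSS-treated Pirc rats 12, 16, 20 and 24, and -6.75, -6.85, -7.24 and -6.94 in untreated Pirc rats 11, 15, 19 and 23. In DSS-treated wildtype rats 14, 18, 22 and 26 it was -6.54, -7.18, -7.55 and -7.25. The DSS-treated Pirc rats thus lay above both of these groups without overlap. Lcn2 was enhanced by DSS in Pirc rats by 1.31 (SE 0.34, limma adjusted p = 0.0187), a factor of 2.48, and exceeded the DSS-treated wildtype level by 1.49 (SE 0.34, limma adjusted p = 0.00899), a factor of 2.82.

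No fold is given for Lcn2 against untreated wildtype rats, where the probe was never well above background and ran from -8.75 to -7.03. The rise with DSS in Pirc rats missed the threshold without rat 19, 16 or 20, at a limma adjusted p between 0.0516 and 0.0643 and a change between 1.15 and 1.21. With quantile normalization it was 0.99 (adjusted p = 0.0909). With normexp background correction, which adds an offset and so draws dim probes together, it was 0.27 (adjusted p = 0.0115), and the difference between the DSS-treated genotypes was 0.32 (adjusted p = 0.00354). With a common floor for dim probes both were 0.60 (adjusted p = 0.0304 and 0.0238). Under these last settings both passed the adjusted p but were under a factor of 2.

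Ltf, the iron-binding partner of Lcn2 in neutrophil granules, was well above background in 1 rat, untreated Pirc rat 11, at -7.10. The levels of the 16 rats ran from -9.45 to -7.05 and the groups overlapped. In these tissues the transcript of Ltf was not detectable above background in the other 15 rats, and no fold is given.

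Reg3b and Reg3g, the bactericidal lectins, read differently from each other. The Reg3b probe was well above background in 2 rats, DSS-treated Pirc rats 20 and 24, at -6.32 and -5.59. The remaining members of that group, rats 12 and 16, read -9.14 and -7.45, and the other 12 rats lay between -9.57 and -8.55. Rat 12 read within the range of the untreated Pirc rats, so the groups overlapped. In Pirc rats the lower bound on the rise of Reg3b with DSS was 1.005-fold, so the size of the rise could not be bounded away from no change. The measured means were -7.13 after DSS and -9.24 untreated (limma adjusted p = 0.0164). Without rat 20 the adjusted p was 0.0615, in a fit of the compared groups alone 0.102 and with a common floor 0.434. Between DSS-treated genotypes the call (limma adjusted p = 0.0415, means -7.13 and -8.81) was lost when 13 of the 16 rats were left out singly, at an adjusted p up to 0.133, and no fold can be bounded. The Reg3g probe was not well above background on any array, and its levels ran from -9.60 to -7.82.

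Slpi, the inhibitor that shields tissue from neutrophil proteases, was strongly read and varied widely within groups. It read 1.27, 1.90, 1.18 and 0.49 in untreated wildtype rats 13, 17, 21 and 25, and 1.47, 1.67, -0.45 and 0.63 in untreated Pirc rats 11, 15, 19 and 23. In DSS-treated wildtype rats 14, 18, 22 and 26 it read 1.11, 1.35, 2.71 and -0.79, and in DSS-treated Pirc rats 12, 16, 20 and 24 it read 0.64, 1.49, 2.33 and 0.67. The groups overlapped in every comparison. The highest and the lowest of all rats, 22 and 26, belonged to the same group. The DSS change was 0.45 in Pirc rats (95% interval -0.93 to 1.83, limma adjusted p = 0.748) and -0.11 in wildtype rats (95% interval -1.50 to 1.27, limma adjusted p = 0.948), so a change of a factor of 2 in either direction lies within the wildtype interval and a rise of that size within the Pirc interval.

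Camp, the cathelicidin precursor, read between -3.83 and -2.26 in the 16 rats. It was higher in DSS-treated Pirc than in DSS-treated wildtype rats by 0.81 (SE 0.24, limma adjusted p = 0.0308), a factor of 1.75, and so passed the test but not the factor of 2. Without rat 14, 22, 16, 20 or 24 it missed the test as well, at an adjusted p between 0.0577 and 0.0887. In DSS-treated Pirc rats 12, 16, 20 and 24 its level was -3.23, -2.26, -2.83 and -2.46. The DSS-treated wildtype rats 14, 18, 22 and 26 all lay below these, at -3.58, -3.28, -3.83 and -3.33. With DSS, Camp changed by 0.61 in Pirc rats (95% interval 0.09 to 1.12, limma adjusted p = 0.111; without untreated rat 23, 0.83 and 0.0182) and by -0.33 in wildtype rats (95% interval -0.84 to 0.19, limma adjusted p = 0.575).

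Pglyrp1, the peptidoglycan receptor of neutrophil granules, read between -4.37 and -3.11. Its highest levels were -3.11 and -3.18, in DSS-treated Pirc rats 16 and 20, while rats 12 and 24 of that group read -3.89 and -4.20, against -4.37 to -4.06 in untreated Pirc rats. The DSS change was 0.58 in Pirc rats (95% interval 0.09 to 1.08, limma adjusted p = 0.112) and 0.24 in wildtype rats (95% interval -0.25 to 0.74, limma adjusted p = 0.694). DSS-treated Pirc and wildtype rats differed by 0.35 (95% interval -0.14 to 0.85, limma adjusted p = 0.332).

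Counted over the 9 members, 4 were called higher and 0 lower with DSS in Pirc rats, where 5.51% of all probes were called higher and 1.95% lower. In wildtype rats 2 were called higher and 0 lower, against 2.37% and 0.402% of all probes. Between DSS-treated genotypes, leaving out S100a9, 3 of the other 8 were called higher in Pirc (S100a8, Lcn2 and Reg3b) and 0 lower, against 3.1% and 2.37%. The difference of the DSS effects was called in 0 members by limma, against 0.0428% higher and 0% lower of all probes (3234 probes at an unadjusted p under 0.05), and in untreated rats 0 members were called. The median log2 change of the members was 0.61 with DSS in Pirc rats, 0.24 with DSS in wildtype rats, 0.01 between untreated genotypes and 0.81 between DSS-treated genotypes, beside 0.04, 0.09, -0.02 and -0.11 over all probes. Since the members were chosen with such results known, nothing is read from these counts and medians.

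Genes related to the members showed which kinds of antimicrobial transcript moved beside them. The share of all probes called higher and lower was 5.51% and 1.95% with DSS in Pirc rats. It was 2.37% and 0.402% in wildtype rats, and 3.1% and 2.37% between the DSS-treated genotypes. Each count of a list below is to be set beside these shares. The S100 list held 16 measured genes, among them the members S100a8 and S100a9 and the binding protein S100pbp, which is not of the family. Of these 16, 6 were called higher and 1 lower with DSS in Pirc rats, and 4 and 0 in wildtype rats. Besides calprotectin, S100a7a, which codes for a psoriasin-like protein of stratified epithelium, was at least 81.5-fold higher in Pirc rats and at least 3.93-fold higher in wildtype rats. S100a4, found in fibroblasts and leukocytes, was enhanced by a factor of 6.87 and 4.39 in these comparisons, and S100a3 by a factor of 5.93 in Pirc rats. S100g, the calcium-binding calbindin of enterocytes, was the member of the family that fell, by 2.57 on the log2 scale (SE 0.61, limma adjusted p = 0.0107) in Pirc rats. The median of this list, members included, was 0.47 with DSS in Pirc rats, against 0.04 over all probes.

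Of 36 other antimicrobial genes measured, 11 were called higher and 2 lower with DSS in Pirc rats, 4 and 0 in wildtype rats, and 5 and 0 in Pirc against wildtype after DSS. Defb1, a beta-defensin, was at least 77.9-fold higher in Pirc rats after DSS, and Defb4 was higher by a factor of 167, with 1 of 4 untreated arrays measured. The phospholipase Pla2g2a, which attacks bacterial membranes, was enhanced by a factor of 21.8 in Pirc rats and 5.92 in wildtype rats, and lysozyme (Lyz2) by 12.6 and 4.88. Gbp2, an interferon-induced GTPase, was enhanced by 7.80 and 4.42. The 2 that fell, named after their values were seen, were Sftpd, a collectin, and Itln1, an intestinal lectin, by changes of -1.37 and -1.32 on the log2 scale in Pirc rats (limma adjusted p = 0.0205 and 0.0227). The median of this list was 0.10, near the 0.04 of all probes.

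The closest relatives of single members did not move as one. Of 5 Reg genes, Reg3b was the one called, and Reg4, well above background on all 16 arrays, changed by -0.72 (SE 0.23, limma adjusted p = 0.0532) with DSS in Pirc rats. Of 9 measured inhibitors listed with Slpi, most of them with its WAP domain, 4 were called higher with DSS in Pirc rats and 0 in wildtype rats. Among them Spink5, an inhibitor of skin proteases, was enhanced by a factor of 34.4, and Wfdc18 by a factor of 332, with 1 of 4 untreated arrays measured. In wildtype rats Spink5 changed by 2.96 on the log2 scale (limma adjusted p = 0.0663). The mean of Wfdc18 there was -8.64 untreated and -2.70 after DSS (limma adjusted p = 0.0512), and neither gene passed. The difference of the DSS effects was called in 0 of these inhibitors. Pglyrp3, an epithelial relative of Pglyrp1, was at least 2.44-fold higher with DSS in Pirc rats (limma adjusted p = 0.023). Of 14 lipocalins, Apod was the one called beside Lcn2, by a factor of 3.34 in Pirc and 4.71 in wildtype rats, with 3 and 1 of 4 untreated arrays measured.

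Beside 5.51% and 1.95% of all probes, 2 of 20 iron and haem genes were called higher and 0 lower with DSS in Pirc rats. These were haptoglobin (Hp), which binds free haemoglobin, by a factor of 5.92, and the ferroxidase ceruloplasmin (Cp), by 4.78, each with 3 of 4 untreated arrays measured. The 2 probes of Steap4, a metalloreductase, disagreed, at 0.09 and 4.89 in Pirc rats and 0.36 and 4.37 in wildtype rats, and the dimmer one was called higher in both genotypes. In wildtype rats transferrin (Tf), the plasma iron carrier, fell by 1.35 on the log2 scale (limma adjusted p = 0.0115). Slc40a1, the iron exporter, was lower in Pirc than in wildtype rats after DSS, at a log2 difference of -1.20 (limma adjusted p = 0.0228).

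Of 14 measured receptors and binding partners of these proteins, 1 was called higher and 2 lower with DSS in Pirc rats. Over all probes, 5.51% were called higher and 1.95% lower. Cd36, a scavenger receptor that binds calprotectin with its fatty acid, was enhanced by a factor of 3.94 in Pirc rats and 4.16 in wildtype rats. The 2 that were lower were Itln1, described above, and Lrp1, an endocytic receptor, which was lower by a factor of 2.01 (limma adjusted p = 0.0348). Tlr4, the signalling receptor for calprotectin, changed by -0.62 (limma adjusted p = 0.069) and 0.14 (limma adjusted p = 0.815), and Ager, the receptor for advanced glycation end products, by -0.14 (limma adjusted p = 0.731) and -0.01 (limma adjusted p = 0.979). Neither passed. Of 10 proteases that Slpi restrains or that are stored with the members, 3 were called higher with DSS in Pirc rats, among them the kallikrein Klk6 (at least 63.9-fold) and Cma1, a mast cell chymase, by a factor of 7.91 with 1 of 4 untreated arrays measured.

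Some of the cytokines and factors known to induce these genes were also called higher. Of 24 measured, 13 were called higher and 0 lower with DSS in Pirc rats, 5 and 0 in wildtype rats, and 8 and 1 in Pirc against wildtype after DSS. Il1a and Il1b were enhanced by factors of 33.3 and 27.8 in Pirc rats and 15 and 24.1 in wildtype rats, and Tnf by 15.3 and 6.22. Il23a, which sustains cells that make Il17a and Il22, was higher by a factor of 22 in Pirc rats, with 2 of 4 untreated arrays measured. Il22 was at least 2.55-fold higher in Pirc rats after DSS, with 2 of 4 DSS-treated arrays measured, and Il17a at least 4.37-fold. Il22 and Il17a are named for their role, after their values were seen, and Il36g, an epithelial cytokine with a larger change, was at least 6.56-fold higher. The median of this list was 1.42 in Pirc rats and 0.43 in wildtype rats, against 0.04 and 0.09 over all probes.

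Lists of markers of other cells were counted beside calprotectin. Of 19 measured neutrophil markers, 7 were called higher with DSS in Pirc rats and 5 in wildtype rats, with 0 lower in either. Itgb2, the leukocyte integrin chain, rose by a factor of 6.57 in Pirc and 5.86 in wildtype rats, with 2 and 1 of 4 untreated arrays measured, and the decoy receptor Il1r2 by 9.63 and 7.05, with 4 and 3. The granule genes Elane, Ctsg and Ngp were not well above background on any array, Mmp8 on 1, and Mpo had no matched probe. Prtn3, also a granule gene, was well above background on 7 arrays and read lower after DSS. It changed by -1.02 in Pirc rats (limma adjusted p = 0.0592) and -0.25 in wildtype rats (limma adjusted p = 0.808), and did not pass. The summed signal of the list, in units of the 75th percentile, a measure carried by the brightest probes, lay between 9.20 and 14.4 in the 8 DSS-treated rats and between 10.9 and 19.6 in the untreated wildtype rats. The mean log2 deviation, which weights each marker equally, was 0.31 to 1.13 in DSS-treated Pirc rats against -0.75 to -0.20 in untreated Pirc rats, with no overlap. In wildtype rats it was -0.24 to 0.90 after DSS against -0.62 to -0.28 untreated, also with no overlap. DSS-treated wildtype rat 22, at -0.24, lay below untreated Pirc rat 23. Of 13 macrophage markers, 7 and 6 were called higher with DSS in Pirc and wildtype rats.

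Markers of stratified and urothelial epithelium, which lines the anal canal and the urinary tract and not the colon, moved furthest. Of 17 measured, 15 were called higher with DSS in Pirc rats, 5 in wildtype rats and 8 between the DSS-treated genotypes, with 0 lower. Krt13, a keratin of internal stratified epithelium, was higher by a factor of 1469 in Pirc rats, with 3 of 4 untreated arrays measured, and at least 47.0-fold higher in wildtype rats. Krt6c, a keratin of stressed stratified epithelium, was enhanced by a factor of 305 in Pirc and 54.5 in wildtype rats, and Sprr3, of the cornified envelope, by 159 and 25. Ivl and Upk2 were not well above background on any array, and the 2 probes of Upk1b differed, at 1.13 and 9.14 in Pirc rats. The summed signal of the list was between 1.01 and 1.79 in the 8 untreated rats. It was 7.30, 13.6, 97.3 and 1.22 in DSS-treated wildtype rats 14, 18, 22 and 26, and 39.5, 97.5, 218 and 155 in DSS-treated Pirc rats 12, 16, 20 and 24.

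Rat 26, which had the lowest S100a8 of the DSS-treated rats, was thus the DSS-treated rat without raised stratified markers, and rat 22, highest of its group in S100a8, was highest in them too. In DSS-treated Pirc rats the orders differed, since rat 16 had the highest S100a8, at 3.78, and a summed stratified signal of 97.5, below those of rats 20 and 24. In S100a9 the order of the DSS-treated wildtype rats was 14, 18, 22 and 26, the order of their macrophage markers, whose mean log2 deviation was 1.09, 0.44, -0.0040 and -0.19. In DSS-treated Pirc rats that deviation ran from 0.64 to 1.11, and their order is not given. Rat 26, lowest of its group in each of these measures, had an array nearest to that of untreated wildtype rat 25. Nothing is read from the order of so few rats. The part of leukocytes or of stratified epithelium in the level of calprotectin was not tested.

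**Figure D4:**
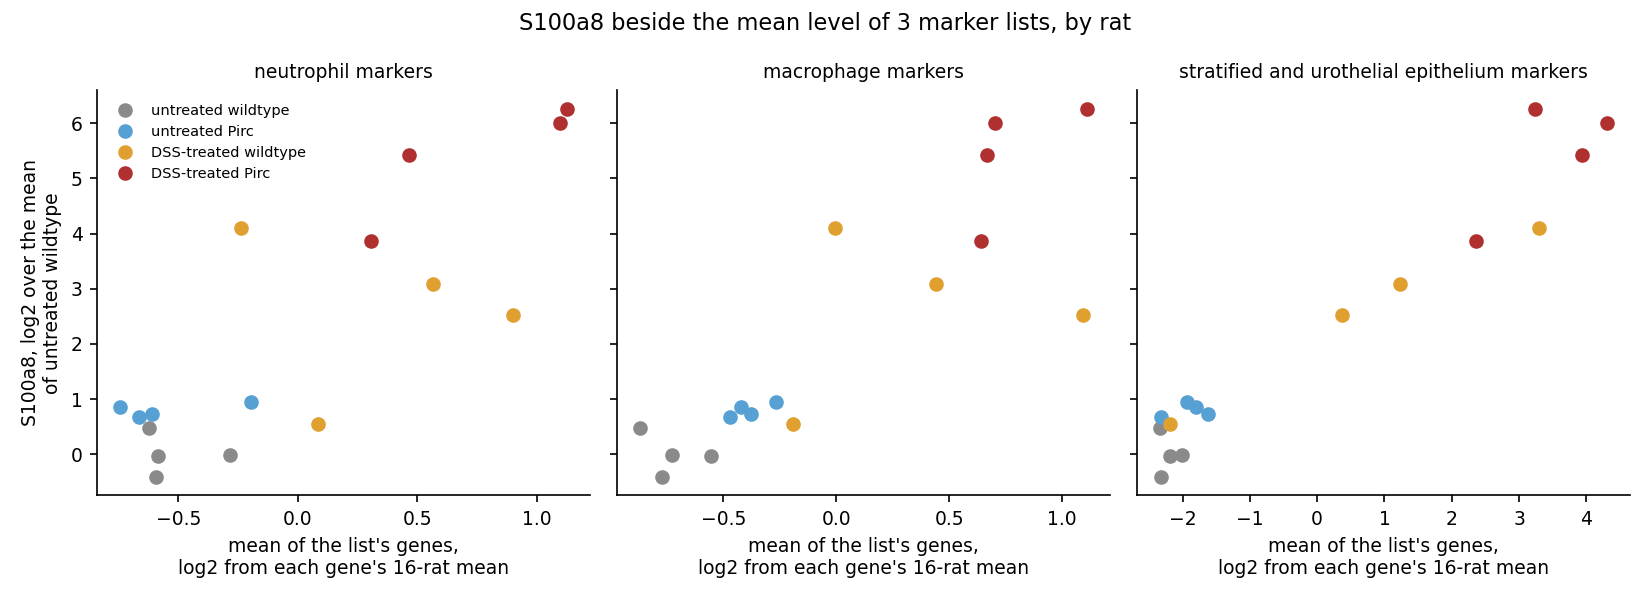
S100a8 in each of the 16 rats, as log2 over the mean of untreated wildtype rats, against the mean of the measured genes of 3 marker lists, each gene taken as log2 deviation from its own mean over all rats. DSS-treated wildtype rat 22 (S100a8 at 4.11) lies far right for stratified epithelium, at 3.30, and left of the other DSS-treated rats for neutrophil markers, at -0.24.

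The genes nearest to a member were ranked by the root mean square difference of their centred log2 levels over the 16 arrays, among 11131 genes. Nearest to S100a9 were Tnf at 0.53, Wwtr1 at 0.56, Ankk1 and Angptl4 at 0.65 and Cited1 at 0.67, where S100a8 stood at 0.71. For Lcn2 they were Fbln5, Fgd6, Ptges, F2 and Gmfb, at 0.37 to 0.42, and for Reg3b Cbx6, Cyp2b2, Stra6, Clca5 and Eya2, at 0.44 to 0.57. Near background these ranks rest mainly on a few rats. Nearest to Slpi was Aqp5, at 0.62, against a spread of Slpi itself of 0.88, so no gene tracked Slpi closely.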

How the data were processed

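Total RNA of normal distal colon was labelled with Cy3 and hybridised to 16 single-colour Agilent arrays, on 2 slides with 2 rats of each group per slide. The authors deposited the Agilent Feature Extraction 10.7.3.1 output, and the processed signal used here is a linear intensity from which the scanner software had already taken off the background, with no scaling from array to array. The submitters' processing notes name Partek. Probes were named by matching their RefSeq accession to a GRCr8 gene table (18006 of 30367 probes matched), and 0 array pairs held identical values.

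The log2 signal minus the log2 of the array's 75th percentile was taken for each spot, control and outlier-flagged spots were dropped, and spots of the same probe were averaged. A probe was well above background on an array if more than a share of 0.5 of its spots were so flagged. All groups were fitted with limma 3.58.1 in R 4.3.3, with Benjamini-Hochberg adjustment over all probes in each of 5 comparisons. Calls required both an adjusted p no higher than 0.05 and a change by a factor of 2 or more. The script was tested on simulated data. Where a probe was never well above background in the dimmer group, the bound set each array there to the higher of the probe's own level and the lowest level well above background. Intervals are 95%.

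The members and the marker and pathway lists were chosen with earlier results of these data known. The genes named are the members, up to 6 called genes of a list with its defining genes that were not called, and the 5 genes nearest in pattern to S100a9, Lcn2, Reg3b and Slpi. A listed gene with several probes was read by the brightest. Alternatives were quantile normalization, normexp with an offset of 50, a filter on dim probes, a common floor, slide or array row as a block, flagged spots kept, only the compared groups, and each rat left out. Nothing in the labels says that the rats of a group came from separate litters, so p-values measure the spread between these rats. Each group lies in 1 array column, so the effects of column and of group cannot be told apart.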

Additional observations from a re-analysis of the deposited data

Results flagged for a closer look

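In untreated Pirc rats, rat 23 stood apart from the other 3 in S100a9, at 0.41 against -0.53 to -0.39. The same rat stood apart in Camp, at -2.63 against -3.59 to -3.43. In both, the gap to the nearest rat took up more of the group's range (0.855 and 0.832) than Dixon's 95% critical value for groups of 4 allows. Of 36 groups of levels checked, 2 stood out in this way, where chance alone gives about 1 in 20, or 1.8. The array of rat 23 had the lowest share of spots well above background of all arrays, 71.1%. Its 75th percentile was 1063.27, against 1824.28 to 2194.03 in the other untreated Pirc rats. The lowest 75th percentile of all arrays, 875.36, was that of DSS-treated Pirc rat 16. Rat 16 read highest of all 16 rats in S100a8, S100a9, Lcn2, Camp and Pglyrp1. Without it the change with DSS in Pirc rats was 4.29 for S100a8 and 3.66 for S100a9, the lowest over the rats left out. The part of array quality in these values was not tested. Without rat 23 the change of Camp with DSS in Pirc rats was 0.83 (limma adjusted p = 0.0182), under a factor of 2.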

How the results depend on the processing

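With slide or array row as a block or flagged spots kept, no member named with a change lost or gained a call. A filter on dim probes left 6 members, without Reg3b, and changed no call among them. The calls of S100a8 and S100a9 with DSS in Pirc rats held under each alternative run. With normexp, 2 members were called with DSS in Pirc rats and 2 between the DSS-treated genotypes. With a common floor, where 7 members had a value, the counts were 2 with DSS in Pirc rats, 0 in wildtype rats and 2 between the DSS-treated genotypes. With only the compared groups in the fit they were 0 in wildtype rats and 2 between the DSS-treated genotypes. The cause was not tested. Counts between the genotypes include S100a9 and are a description. Over the rats left out singly, the count was 2 (without rat 20) to 5 (without rat 24, where Ltf, at background, was added) with DSS in Pirc rats, 0 to 2 in wildtype rats, 3 to 4 between the DSS-treated genotypes, and 0 in untreated rats and for the difference of the DSS effects. Over all probes, the calls with DSS in Pirc rats, 2265, were 981 with normexp. Those in wildtype rats, 841, were 233 with normexp, 399 with the floor, 402 with only the compared groups and 375 to 1178 over the rats left out. Those between DSS-treated genotypes, 1660, were 814 with normexp, 1018 with only the compared groups and 1024 to 2139 over the rats left out. The 13 calls of the difference were 37 with normexp, 25 with the floor and 8 to 63 over the rats left out, and the 0 in untreated rats were at most 4. Pglyrp1 between untreated genotypes, at 0.012, was -0.0276 with quantile normalization and -0.0243 with normexp, and ran from -0.0395 to 0.0771 over the rats left out. Slpi changed direction over the rats left out, from -0.65 to 0.51 with DSS in wildtype rats, -0.66 to 0.0476 between untreated genotypes, -0.44 to 0.73 between DSS-treated genotypes and -0.0615 to 1.11 for the difference of the DSS effects. Signal near background limits Lcn2, Reg3b, Reg3g and Ltf. No paired analysis was possible because the rat numbers of different groups are not shared.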

Other observations

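Of 8 measured markers of plasma and B cells, 5 were called higher with DSS in Pirc rats, among them Tnfrsf17, the receptor for plasma cell survival factors, by a factor of 9.69 with 1 of 4 untreated arrays measured, and Pou2af1, a coactivator of B cells, by 4.90. Of 9 measured genes linked to Paneth cells, 4 were called higher and 1 lower with DSS in Pirc rats. Mmp7, the protease that activates alpha-defensins in mice, was enhanced by a factor of 55.2 in Pirc rats and 6.63 in wildtype rats, while the alpha-defensin Defa5 was not well above background on any array. With DSS in Pirc rats, 5.51% of all probes were called higher and 1.95% lower. Of 18 colon epithelial markers, 1 was called higher and 1 lower in that comparison, with a median change of 0.05. Clca4, of the same epithelium, was enhanced by a factor of 3.18 (limma adjusted p = 0.00676) and in wildtype rats by 3.38, and Slc26a3, the chloride and bicarbonate exchanger of surface colonocytes, fell in Pirc rats by 1.72 in log2 units (limma adjusted p = 0.00268). Of 8 smooth muscle markers, 0 were called higher and 1 lower with DSS in Pirc rats, and the median change was 0.50. The one called was Des, the muscle intermediate filament desmin, lower by a factor of 3.64, while Tagln, Actg2 and Myh11 read 3.58, 2.46 and 1.38 and did not pass (limma adjusted p = 0.0717, 0.262 and 0.336).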
